A study of Mus musculus with 8 samples.

Results

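The 76 genes described here were lower in fresh mouse germ cells and after 3 days of culture than after 6 days of culture and in the embryonic germ (EG) cells that such culture yields. They are called the late gains below. They were chosen by their log2 intensity, over probes that carry a gene symbol and were measured on all 8 arrays. The rule asked that the lowest of the 4 Day6 and EG arrays lie at least 0.7 above the highest of the 4 E11.5 PGC and Day3 arrays, and that the means of Day3 and E11.5 PGC differ by less than 1. With 1 probe kept per gene, the brightest that met the rule, 76 of 14030 genes measured on all arrays met it (0.542%), so the cap of 300 genes in the rule was not reached. The gap between the early and the late arrays is therefore what defined these genes and is given below as a description, with no test.

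All 8 samples carried the Nanog-GFP reporter and were labelled as primordial germ cells, the embryonic precursors of eggs and sperm. E11.5 PGC were germ cells of stage E11.5, given as the starting cells. Day3 and Day6 were named for 3 and 6 days in 2i+A83, and EG were embryonic germ cells named with the same inhibitors. The mixture is PD325901 at 1 µM, which blocks MEK, CHIR99021 at 3 µM, which blocks GSK3, and A83-01 at 250 nM, which blocks the type I receptors of Activin, Nodal and TGF-beta. The medium was knockout DMEM with 15% KSR, a serum replacement, and it held LIF, bFGF, 2-ME, glutamine and amino acids, and the labels repeat medium and inhibitors for every sample, the fresh cells included. Cells were sorted by FACS during the culture period, with the gate not given in the sources used here, and nothing gives the sex of the embryos, the number of embryos or EG lines behind an array, or whether the 2 arrays of a group came from separate cultures. P-values below then measure only the spread between these arrays, which may be technical. Array names fall into a series A and a series B. For E11.5 PGC, Day3 and Day6, replicate 1 lies in A and replicate 2 in B, while the EG arrays both lie in A.

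Germ cells of this stage express pluripotency factors but do not form a pluripotent line unless they are explanted with growth factors or inhibitors. LIF acts through STAT3, and the blockade of MEK and GSK3 holds mouse pluripotent cells in the naive state, that of the preimplantation epiblast. Conversion takes days and few cells complete it. The established EG line resembles embryonic stem cells in what it expresses and in its ability to form all tissues.

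The probes of the array are not given as sequences in the files used here, so the promoters of the 4 genes with the widest gap that stand in the RefSeq promoter table (GRCm38.p6) are shown, to let a reader look for elements of the factors that the inhibitors and LIF act on. Each is the 250 bases before the gene's start, on the gene's own strand, with matches to a searched motif in capitals. Myo1f lies on the plus strand at chr17:33555457-33555706, Pdcl2 on the minus strand at chr5:76331157-76331406, Armcx2 on the minus strand at chrX:134809222-134809471 and Laptm5 on the plus strand at chr4:130913066-130913315.
Myo1f: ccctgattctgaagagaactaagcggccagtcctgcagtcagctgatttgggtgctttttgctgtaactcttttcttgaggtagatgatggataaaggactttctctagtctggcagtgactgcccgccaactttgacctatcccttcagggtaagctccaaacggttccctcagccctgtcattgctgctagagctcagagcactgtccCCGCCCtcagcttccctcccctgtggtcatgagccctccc
Pdcl2: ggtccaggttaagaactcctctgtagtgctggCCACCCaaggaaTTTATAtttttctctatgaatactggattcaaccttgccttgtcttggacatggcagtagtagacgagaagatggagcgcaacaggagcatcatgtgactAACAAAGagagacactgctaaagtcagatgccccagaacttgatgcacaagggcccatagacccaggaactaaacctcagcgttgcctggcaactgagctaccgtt
Armcx2: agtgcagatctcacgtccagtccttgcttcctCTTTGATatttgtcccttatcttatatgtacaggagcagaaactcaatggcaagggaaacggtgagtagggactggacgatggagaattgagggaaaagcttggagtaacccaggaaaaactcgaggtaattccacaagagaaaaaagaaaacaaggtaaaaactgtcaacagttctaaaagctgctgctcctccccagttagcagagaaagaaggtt
Laptm5: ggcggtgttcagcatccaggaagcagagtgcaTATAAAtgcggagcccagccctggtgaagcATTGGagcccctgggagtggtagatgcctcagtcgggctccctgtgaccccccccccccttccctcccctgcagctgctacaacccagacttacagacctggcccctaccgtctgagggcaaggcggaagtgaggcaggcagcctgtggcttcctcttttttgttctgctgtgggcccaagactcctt
The motifs, searched on both strands, were the E-box CACGTG, the CRE TGACGTCA, the CCAAT box CCAAT, the GC box GGGCGG, the CACCC box CCACCC, the ERR element TCAAGGTCA, the octamer ATGCAAAT, the STAT element TTCNNNGAA, the TCF/LEF element CTTTGNT, the E2F6 element TCCCGC, the ETS element CCGGAAG, the TATA box TATAAA, the NRF1 element and the CLEAR element TCACGTGA, which holds the E-box. The promoter of Myo1f matched the GC box at position -40 on the other strand, with 32.9% of the 27025 promoters in the table holding that motif. Pdcl2 matched the CACCC box at -218 (27.7% of promoters), the TATA box at -206 on the other strand (13%) and the TCF/LEF element at -106 on the other strand (16.1%). Armcx2 matched the TCF/LEF element at -218 and nothing else of the list, and Laptm5 matched the TATA box at -218 and, on the other strand, the CCAAT box at -188 (34.5%). None of the 4 held the STAT element, which 7.18% of promoters hold, or the octamer (1.61%). The other motifs that matched in none of these 4 windows are held by between 0.366% (the ERR element) and 16.9% (the E2F6 element) of promoters. A match is a run of bases only. Whether any of them, such as the TATA box matches at -206 and -218, works in its promoter was not tested. Only 57 of the 76 late gains (75%) stand in the table, under the 80% needed to describe motifs or base composition over the set, so none is given.

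The 76 genes went from a median early intensity of 8.39 to a median late intensity of 49.3. The medians over the 14211 probes with a gene symbol that were measured on all arrays were 32.4 and 30.5. The scale is the authors' linear intensity, with an array median between 19.99 and 20.01, and intensities of different probes do not compare transcripts. The lowest late array exceeded the highest early array by a median of 1.07 on the log2 scale, by over 2 for 9 genes, by 1 to 2 for 34 and by 0.7 to 1 for 33. In these bulk samples, fewer cells that express a gene and less RNA per cell cannot be told apart. The floor of the array was taken as 4.24, the 25th percentile of probe means. All 4 early arrays lay under it for 8 genes (A2m, Klb, Defcr3, Xkr5, Tnnt2, Gdpd5, Mrvi1 and Pik3r1), which is 10.5% against 5.19% of the 14211 probes. Folds of those 8 genes rest on values that differ little from background. At least 1 early array lay under the floor for 29 genes, the 8 included, so folds of the others among them rest in part on such values. In Pdcl2, Nlrp4f, Vax2, Rbp7 and Mme 3 of the 4 early arrays lay under it. For 47 genes no early array lay under the floor. On the late side, 14 genes had all 4 arrays over an intensity of 100 and 42 had all 4 under it.

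**Figure D1:**
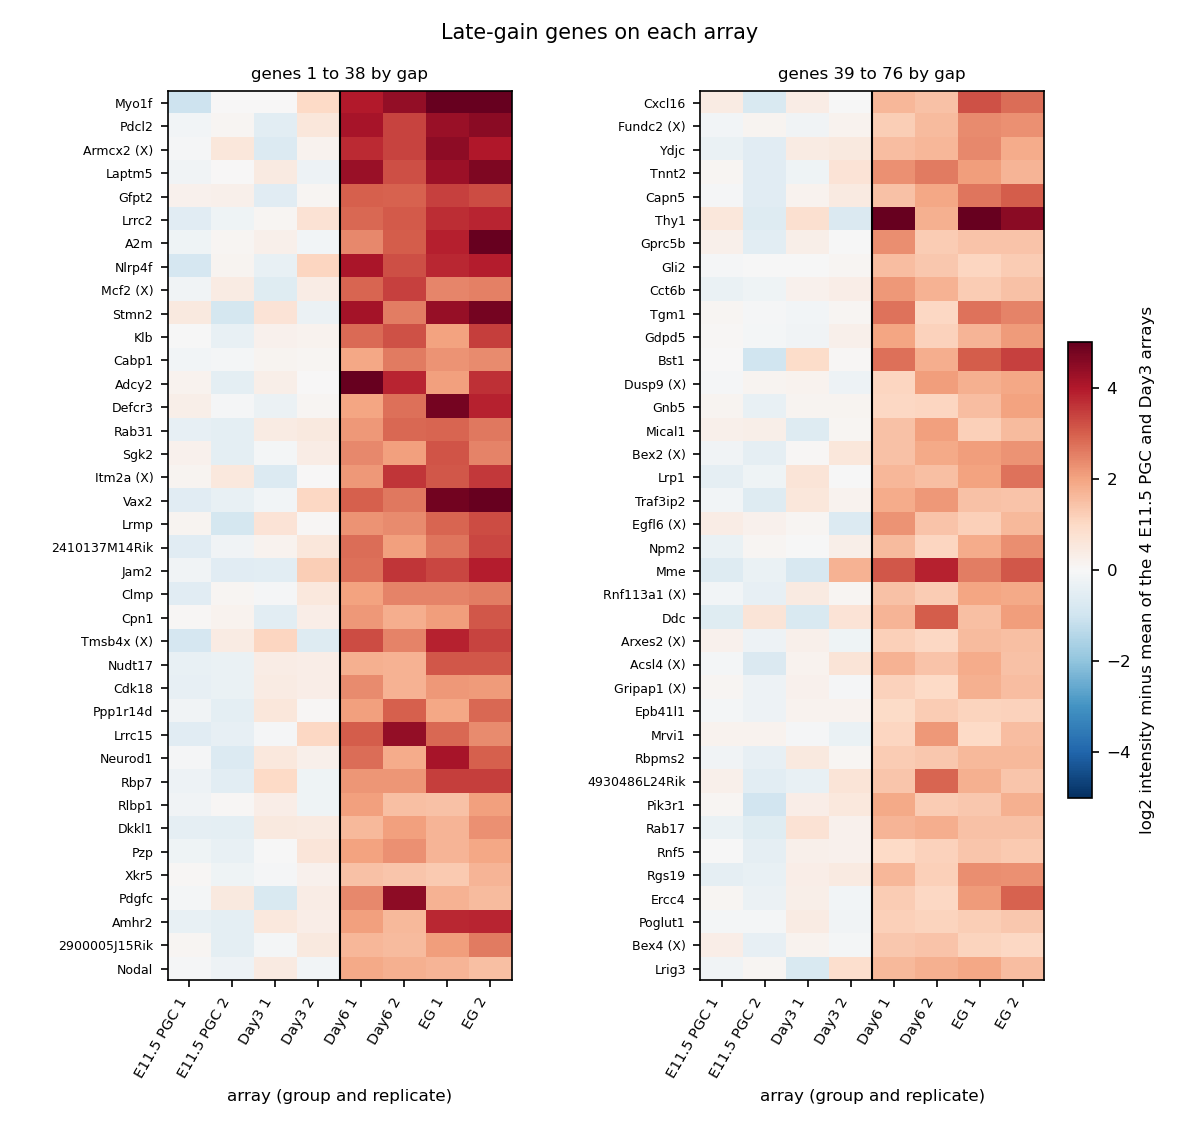
Log2 intensity of the 76 late gains (rows, in order of gap, X-linked genes marked with X) on the 8 arrays (columns), as the difference from the mean of the 4 early arrays. The 4 arrays right of the vertical line are higher than the 4 left of it in every row, as the rule required. In the row of Thy1, Day6 replicate 1 had an intensity of 747 against 10.7 in replicate 2. The colour scale is capped, so that cell looks much like the EG cells of the row (96.6 and 71).

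The early groups differed from each other within the limit of the rule: Day3 was above E11.5 PGC in the mean for 62 of the 76 genes and below for 14, with a median difference of 0.37. As the rule favours, the largest part of the difference lay between Day3 and Day6, with a median difference of 1.83 in replicate 1 and 1.68 in replicate 2, and the smallest of any gene was 0.74 and 0.73. At the edge of the rule, Poglut1 (gap 0.73), Bex4 (0.71) and Lrig3 (0.70) were just inside the gap of 0.7, and Stac2 (0.68), Reg2 (0.68) and Fzd4 (0.67) were just outside. Myo1f (Day3 minus E11.5 PGC of 0.99), Lrrc15 (0.98) and Bst1 (0.97) were just inside the limit of 1, and Bex1 (1.01), Fthl17e (1.01) and Ttn (1.03) were just outside. With single arrays left out, the rule gave 137 genes without Day3 replicate 1, 131 without Day3 replicate 2 and 169 without Day6 replicate 2. Leaving out an array cannot narrow a gap, so a higher count follows in part from the rule itself.

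The widest gap, 2.97, belonged to Myo1f, which encodes a class I myosin that links membranes to actin and is best known from leukocytes. Its intensities, given here and below as replicate 1 and replicate 2 of each group, were 3.11 and 6.49 (E11.5 PGC), then 6.38 and 12.5 (Day3), next 97.7 and 133 (Day6) and 219.96 and 466 (EG). Both EG arrays were above both Day6 arrays, and Day3 replicate 2 was the highest of the early arrays. Pdcl2, a phosducin-like protein of male germ cells, gave 3.46 and 4.08 (E11.5 PGC), then 2.68 and 5.59 (Day3), next 65.7 and 39.8 (Day6) and 75.6 and 86.7 (EG). Armcx2, an X-linked armadillo-repeat gene whose family includes mitochondrial outer membrane proteins, gave 6.03 and 9.25 (E11.5 PGC), then 3.89 and 7.19 (Day3), next 82.6 and 65.1 (Day6) and 140.3 and 102 (EG). The early arrays of Pdcl2 lay near or under the floor, and in both genes the late arrays stood far apart from them. Laptm5, a lysosomal membrane protein of blood cells, gave 8.98 and 10.4 (E11.5 PGC), then 13.8 and 8.54 (Day3), next 205 and 96 (Day6) and 200.2 and 261 (EG). Gfpt2, an enzyme at the entry of the hexosamine pathway, gave 7.14 and 7.34 (E11.5 PGC), then 4.23 and 6.68 (Day3), next 49.1 and 47.6 (Day6) and 66.4 and 59.99 (EG). The 4 late arrays of Gfpt2 were close together, whereas Day6 replicate 2 of Laptm5 was well below its other 3 late arrays. Lrrc2, a leucine-rich repeat protein, gave 15.1 and 19.4 (E11.5 PGC), then 23.9 and 37.1 (Day3), next 164 and 187 (Day6) and 292 and 316 (EG), with an order of the groups that ran from E11.5 PGC through Day3 and Day6 to EG without overlap.

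A2m encodes alpha-2-macroglobulin, a secreted protease inhibitor, and gave 2.17 and 2.71 (E11.5 PGC), then 2.99 and 2.26 (Day3), next 13.2 and 20.4 (Day6) and 37.2 and 134 (EG). Its early arrays were all under the floor, and EG replicate 2 stood far above the other late arrays. Nlrp4f, a NLRP family gene of the oocyte, gave 1.24 and 2.48 (E11.5 PGC), then 1.73 and 4.71 (Day3), next 37.5 and 20.6 (Day6) and 30.3 and 33.9 (EG). Mcf2, an X-linked proto-oncogene, gave 12.7 and 18.9 (E11.5 PGC), then 9.44 and 18.2 (Day3), next 108 and 154 (Day6) and 77.3 and 82.2 (EG), and was brighter on both Day6 arrays than on both EG arrays. Stmn2, a microtubule-destabilizing protein of neurons, gave 10.9 and 4.25 (E11.5 PGC), then 12.6 and 6.36 (Day3), next 139 and 46.1 (Day6) and 159 and 214 (EG). Klb, the co-receptor beta-Klotho for endocrine FGFs, gave 2.23 and 1.75 (E11.5 PGC), then 2.63 and 2.59 (Day3), next 16.2 and 20.9 (Day6) and 9.22 and 25.1 (EG), with early arrays under the floor. Cabp1, a calcium-binding protein of the calmodulin family, gave 4.43 and 4.62 (E11.5 PGC), then 5.33 and 5.3 (Day3), next 18.6 and 29.9 (Day6) and 23.1 and 25.4 (EG), and its Day6 and EG arrays overlapped.

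**Figure D2:**
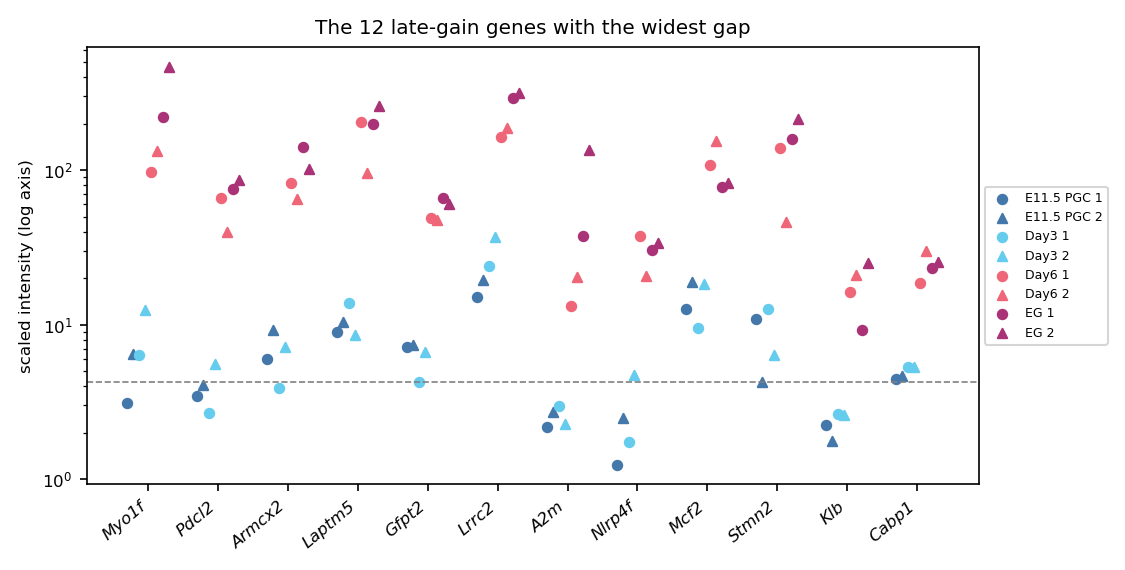
Scaled intensity (log axis) of the 12 late gains with the widest gap, 1 point per array, with groups in colour, replicate 1 as circles and replicate 2 as triangles. The dashed line is the floor of 4.24: all early arrays of A2m and Klb lie under it, while those of Lrrc2 run from 15.1 to 37.1.

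Ligands and receptors formed one part of the set. Nodal, the TGF-beta family ligand of the early embryo, gave 149 and 130.3 (E11.5 PGC), then 209.5 and 138 (Day3), next 575 and 525 (Day6) and 503 and 442 (EG). A83-01 blocks the receptors for this ligand, and the Day6 and EG arrays of Nodal stood close together, with EG slightly below. These values are of Nodal RNA, and signalling through its receptors was not measured. Pdgfc, a platelet-derived growth factor ligand, gave 4.36 and 6.55 (E11.5 PGC), then 2.75 and 6.09 (Day3), next 24.9 and 104 (Day6) and 15.6 and 13.9 (EG), with Day6 replicate 2 apart from all others. Amhr2, the type II receptor for anti-Müllerian hormone, gave 7.87 and 7.22 (E11.5 PGC), then 14.6 and 12.7 (Day3), next 42.2 and 30.9 (Day6) and 136 and 143 (EG). In Amhr2 the 2 arrays of each group were close and the EG arrays were the highest. Cxcl16, a membrane-bound chemokine, gave 5.13 and 2.31 (E11.5 PGC), then 4.99 and 3.81 (Day3), next 12.3 and 10.7 (Day6) and 35.3 and 26.7 (EG) on the probe that met the rule, while a second probe did not follow it. Lrp1, an endocytic receptor for alpha-2-macroglobulin and other ligands, gave 9.25 and 10.8 (E11.5 PGC), then 19.8 and 12.4 (Day3), next 39.4 and 35.5 (Day6) and 51 and 82 (EG), and Pzp, a related macroglobulin, gave 11.3 and 10.1 (E11.5 PGC), then 13 and 19.6 (Day3), next 52.5 and 64.3 (Day6) and 42.4 and 49.3 (EG). Both were above the floor on every array. Egfl6, an X-linked EGF-like matrix protein, gave 13 and 11.6 (E11.5 PGC), then 10.8 and 6.22 (Day3), next 48.3 and 26.8 (Day6) and 23.2 and 30.5 (EG).

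Components that act inside the cell on signals were also present. Dusp9, the X-linked phosphatase of ERK, gave 57.7 and 64.9 (E11.5 PGC), then 67.5 and 50.6 (Day3), next 126 and 254 (Day6) and 204 and 228 (EG). Gli2, the transcription factor of Hedgehog signalling, gave 4.37 and 4.55 (E11.5 PGC), then 4.46 and 4.86 (Day3), next 13.3 and 11.47 (Day6) and 9.48 and 10.9 (EG). These were high on all late arrays, by a modest amount in Gli2. Adcy2, an adenylyl cyclase, gave 13.2 and 8.42 (E11.5 PGC), then 14.2 and 12 (Day3), next 407 and 165 (Day6) and 48.7 and 148 (EG), with the lowest late value in EG replicate 1. Pik3r1, the regulatory p85 subunit of PI3 kinase, gave 2.9 and 1.4 (E11.5 PGC), then 3.38 and 3.9 (Day3), next 10.1 and 6.55 (Day6) and 6.81 and 9.33 (EG) and stayed dim throughout. Traf3ip2, the Act1 adaptor of the IL-17 receptor, gave 23.9 and 16.9 (E11.5 PGC), then 39.2 and 29.9 (Day3), next 95.6 and 118 (Day6) and 73 and 69.9 (EG), and both EG arrays were below both Day6 arrays. Rgs19 and Gnb5 act on G proteins: Rgs19 had early intensities of 9.69 to 18.1 and late ones of 30.02 to 66.6, and Gnb5 had 13.1 to 18.7 and 34.7 to 69.4. The kinases Sgk2 (3.15 to 5.76 early, 18.3 to 39.2 late) and Cdk18 (3.65 to 6.28 early, 16.1 to 24.4 late) followed the same steps at lower intensity.

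Among genes of the cell surface, Jam2, a junctional adhesion molecule, gave 54.7 and 41.7 (E11.5 PGC), then 42.9 and 145 (Day3), next 409.9 and 730.05 (Day6) and 615 and 923 (EG). Day3 replicate 2 was the highest early array. Clmp, an adhesion molecule of the same superfamily, gave 11.7 and 18.5 (E11.5 PGC), then 16.9 and 24.9 (Day3), next 70.3 and 97 (Day6) and 95.8 and 103 (EG). Itm2a, an X-linked type II membrane protein, gave 21.1 and 27.8 (E11.5 PGC), then 11.9 and 19.5 (Day3), next 86.4 and 226 (Day6) and 164 and 224 (EG). Mme, the peptidase neprilysin, gave 2.83 and 3.5 (E11.5 PGC), then 2.53 and 14.6 (Day3), next 37.7 and 62.2 (Day6) and 25.5 and 37.3 (EG), and Day3 replicate 2 again stood above the other early arrays. Bst1, an ectoenzyme of the ADP-ribosyl cyclase family, gave 4.7 and 2.33 (E11.5 PGC), then 8.73 and 4.78 (Day3), next 31.6 and 16.4 (Day6) and 38.1 and 48.8 (EG). The cytoskeletal gene Tmsb4x, X-linked thymosin beta 4, which binds actin monomers, gave 308 and 720.03 (E11.5 PGC), then 1153 and 351 (Day3), next 5233 and 3092 (Day6) and 7847 and 5693 (EG). Its early arrays spread from 308 to 1153, and Day6 replicate 2 was the lowest late array. Mical1, which oxidises actin, gave 16.6 and 16.8 (E11.5 PGC), then 8.7 and 14.8 (Day3), next 37.6 and 56.9 (Day6) and 31.1 and 41.5 (EG). Tnnt2, cardiac troponin T, gave 2.51 and 1.56 (E11.5 PGC), then 1.99 and 3.71 (Day3), next 11.3 and 14 (Day6) and 9.94 and 7.5 (EG), with early arrays under the floor.

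Genes known from germ cells and oocytes were also present. Besides Pdcl2 and Nlrp4f, Npm2, a histone chaperone of the oocyte, gave 5.02 and 6.7 (E11.5 PGC), then 6.14 and 7.64 (Day3), next 18.8 and 13.5 (Day6) and 22.7 and 31.4 (EG). Dkkl1, an acrosomal protein, gave 12.4 and 11.9 (E11.5 PGC), then 23.6 and 22.8 (Day3), next 52.1 and 69.8 (Day6) and 54.3 and 82.8 (EG), with Day3 already above E11.5 PGC in both replicates. Cct6b, the testis form of a chaperonin subunit, gave 3.71 and 4.06 (E11.5 PGC), then 5.42 and 5.84 (Day3), next 21.1 and 15.5 (Day6) and 11.3 and 12.9 (EG). Of transcription factors with a role in other tissues, Vax2, a homeobox gene of the eye, gave 1.68 and 1.92 (E11.5 PGC), then 2.27 and 5.12 (Day3), next 19.9 and 15.4 (Day6) and 70.1 and 114 (EG), and Neurod1, a bHLH factor of neurons and pancreas, gave 5.36 and 3.46 (E11.5 PGC), then 8.08 and 6.6 (Day3), next 39.4 and 20.2 (Day6) and 97.5 and 44.4 (EG). Vax2 was highest in EG without overlap, and so was Neurod1. Among enzymes, Nudt17, a Nudix hydrolase, gave 5.37 and 5.44 (E11.5 PGC), then 8.89 and 8.73 (Day3), next 23.8 and 22.9 (Day6) and 59.9 and 60.2 (EG), and its replicates were nearly equal in every group. Acsl4, an X-linked ligase for long-chain fatty acids, gave 4.95 and 3.25 (E11.5 PGC), then 6.05 and 8.41 (Day3), next 18 and 14.5 (Day6) and 19.4 and 15 (EG), and Ddc, which makes dopamine and serotonin, gave 12 and 28.5 (E11.5 PGC), then 10.6 and 29.4 (Day3), next 58.9 and 148 (Day6) and 51 and 76.8 (EG). In Ddc replicate 2 was above replicate 1 in all 4 groups. Ercc4, the XPF subunit of the excision repair nuclease, gave 46.4 and 35.4 (E11.5 PGC), then 53.6 and 39.8 (Day3), next 106 and 89 (Day6) and 188 and 331 (EG).

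The brightest probes on the late arrays were those of Tmsb4x, Bex4, Jam2, Rnf5, Bex2, Poglut1, Nodal and Rbpms2. Rnf5, a ubiquitin ligase of the endoplasmic reticulum, gave 259 and 197 (E11.5 PGC), then 318 and 308 (Day3), next 530.4 and 588 (Day6) and 692 and 658 (EG). Poglut1, which adds glucose to EGF repeats of Notch, gave 209 and 211 (E11.5 PGC), then 298 and 198 (Day3), next 514 and 494 (Day6) and 532 and 579.8 (EG). Rbpms2, an RNA-binding protein, gave 160.3 and 138 (E11.5 PGC), then 257 and 197 (Day3), next 440.2 and 471 (Day6) and 559 and 562 (EG). In Poglut1 the Day3 arrays differed from each other, and the higher of them set its gap.

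The remaining late gains followed the same steps. Rab31, a GTPase of vesicle transport, gave 8.81 and 8.27 (E11.5 PGC), then 15.4 and 16.2 (Day3), next 51.8 and 83.9 (Day6) and 87.5 and 72.7 (EG), and Rab17, another of that family, gave 5.36 and 4.42 (E11.5 PGC), then 11.1 and 7.86 (Day3), next 22.2 and 23.7 (Day6) and 18.5 and 18.7 (EG). Rbp7 and Rlbp1 bind retinoids: Rbp7 gave 1.9 and 1.61 (E11.5 PGC), then 4.59 and 1.97 (Day3), next 10.6 and 10.6 (Day6) and 25 and 25.1 (EG), and Rlbp1 gave 6.44 and 7.57 (E11.5 PGC), then 9 and 6.28 (Day3), next 30.1 and 20.4 (Day6) and 20.03 and 29.9 (EG). Rbp7 was clearly highest in EG, whereas the EG and Day6 arrays of Rlbp1 overlapped. Capn5, a calpain protease, gave 12.4 and 8.72 (E11.5 PGC), then 14.9 and 17.9 (Day3), next 36.1 and 49.1 (Day6) and 82.2 and 106 (EG), and Gprc5b, an orphan receptor, gave 10.7 and 6.17 (E11.5 PGC), then 11 and 8.88 (Day3), next 44.3 and 21.7 (Day6) and 24.1 and 24.3 (EG). Cpn1, the catalytic subunit of carboxypeptidase N, had early intensities of 5.39 to 9.71 and late ones of 27.4 to 67.6. Ppp1r14d, an inhibitor of protein phosphatase 1, had 6.46 to 13.5 and 34.2 to 71.1, and Lrmp, a protein of the endoplasmic reticulum, 3.44 to 9.97 and 29.7 to 60.3. Lrig3, a leucine-rich repeat protein of the membrane, had 17.9 to 53.7 and 87.6 to 116, and Ydjc 23 to 48.2 and 100.5 to 180. Xkr5, Gdpd5 and Mrvi1 were dim throughout, with early arrays under the floor and no late array above 15. The uncharacterised genes 2410137M14Rik, 2900005J15Rik and 4930486L24Rik had early intensities of 3.21 to 16 and late ones of 12.1 to 110.

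The X chromosome held a larger share of the late gains than of all genes measured. Of the 75 genes with a chromosome in the RefSeq table, 13 were X-linked (17.3%), against 459 of 13977 genes measured (3.28%). The autosome with the most was chromosome 7 with 6 (8%), against 8.38% of all genes measured. The mirrored set, genes lower on all Day6 and EG arrays by the same rule, had 2 of 66 on the X (3.03%), genes higher than E11.5 PGC from Day3 on had 30 of 463 (6.48%), and genes lower from Day3 on had 10 of 352 (2.84%). The share was 17 of 124 with a gap of at least 0.5 and 6 of 43 with a gap of at least 1. The 13 genes were Armcx2, Mcf2, Itm2a, Tmsb4x, Fundc2, Dusp9, Bex2, Egfl6, Rnf113a1, Arxes2, Acsl4, Gripap1 and Bex4. Fundc2, a mitochondrial outer membrane protein, gave 69.4 and 85.3 (E11.5 PGC), then 67.7 and 87.1 (Day3), next 182 and 227 (Day6) and 395 and 371 (EG). Rnf113a1, a zinc-finger protein of the spliceosome, gave 44.4 and 36 (E11.5 PGC), then 66.3 and 51.1 (Day3), next 132 and 115 (Day6) and 187 and 179.7 (EG), and Gripap1, a partner of the synaptic protein GRIP1, gave 24.5 and 19.3 (E11.5 PGC), then 27 and 22.4 (Day3), next 51.7 and 46.7 (Day6) and 78.6 and 67.5 (EG). In all 3 both EG arrays were above both Day6 arrays. Of the members, Arxes2 and Bex2 were next to each other among the measured genes of the X, as were Egfl6 and Tmsb4x; Bex2 and Bex4 had 1 measured gene between them and Armcx2 and Arxes2 had 7.

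The wider set of X-linked genes, members included, was compared in the late contrast, the mean of Day6 and EG minus the mean of E11.5 PGC and Day3, with limma and Benjamini-Hochberg adjustment over 19524 probes. In it 9.61% of all probes were called at an adjusted p under 0.05 (4.9% higher, 4.71% lower). Of 459 X-linked genes 66 were called higher (14.4%) and 6 lower (1.31%), and of 13516 autosomal genes 652 were called higher (4.82%) and 747 lower (5.53%). These shares depended on the fit and on single arrays. The X-linked and autosomal shares called higher were 23.7% and 8.81% in the fit blocked by array series. They were 8.93% and 2.51% without E11.5 PGC replicate 1, 6.75% and 1.93% without E11.5 PGC replicate 2, 6.32% and 1.71% without EG replicate 1, and 4.79% and 1.23% without EG replicate 2. Without the 13 members, which had to be higher, 53 of 446 X-linked genes were called higher (11.9%) and 6 lower, and their median was 0.12 against -0.13 for autosomal genes. By step, the X-linked medians were 0.00 for Day3 minus E11.5 PGC, 0.19 for Day6 minus Day3 and -0.10 for EG minus Day6, and the autosomal ones -0.14, -0.07 and -0.03. Between Day3 and Day6 the X-linked median was 0.18 in replicate 1 and 0.23 in replicate 2, against -0.13 and 0.00 for autosomal genes.

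Values of 3 other sex-linked genes are given beside this. The Y-linked zinc-finger gene Zfy1 gave 47.5 and 52 (E11.5 PGC), then 42.1 and 71.4 (Day3), next 14.8 and 24.6 (Day6) and 2.09 and 3.09 (EG), and fell in the late contrast by 2.91 on the log2 scale (limma adjusted p = 0.00316). The Y-linked demethylase gene Kdm5d gave 36.3 and 47.6 (E11.5 PGC), then 31.2 and 40.7 (Day3), next 22.3 and 33.7 (Day6) and 30.6 and 29.3 (EG), with a late contrast of -0.43 (adjusted p = 0.298). The X-linked demethylase gene Kdm6a gave 271 and 179 (E11.5 PGC), then 382 and 239.7 (Day3), next 501 and 339 (Day6) and 572 and 582 (EG), with a late contrast of 0.92 (adjusted p = 0.0741, or 0.0117 in the fit blocked by array series). Zfy1 was under the floor in EG while Kdm5d was measured at a like level in every group. The part of the makeup of the samples by sex in the share of X-linked late gains was not tested.

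**Figure D3:**
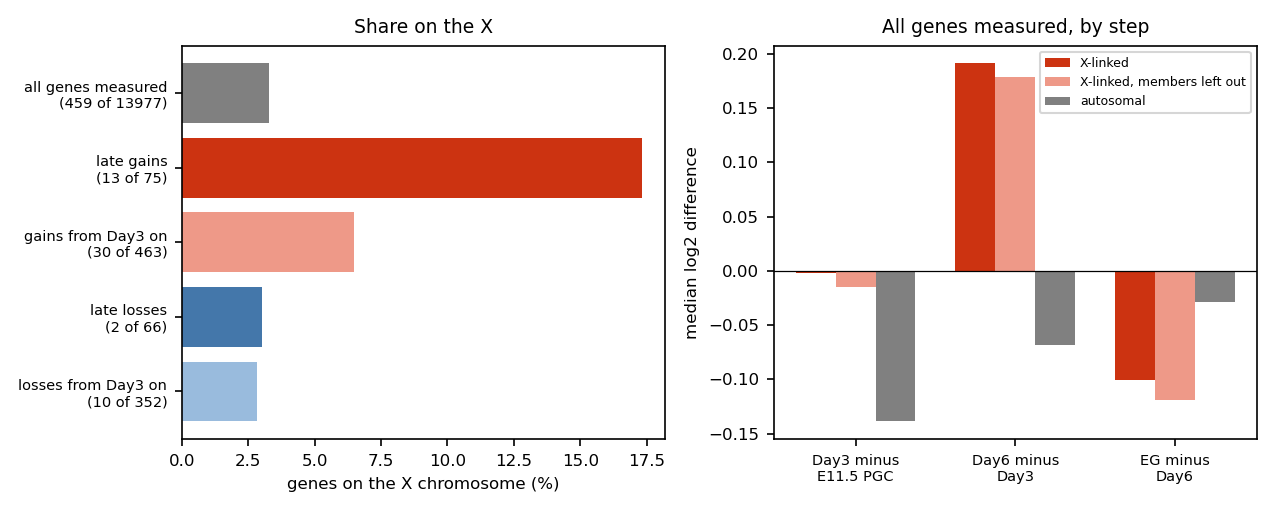
Left, percent of genes on the X chromosome among all genes measured and in 4 sets, each with its count. Right, median log2 difference over all X-linked genes measured, over those genes without the 13 late gains, and over autosomal genes, for the 3 steps of the series. The late gains reach 17.3% against 3.28% of all genes measured, and the X-linked median is above the autosomal one from Day3 to Day6 (0.19 against -0.07).

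The Armcx and BEX/TCEAL genes lie together on the X and encode small or armadillo-repeat proteins found in neurons and elsewhere. Of the 15 tested genes of the list for this cluster 3 were late gains, Armcx2, Bex2 and Bex4. The list also holds X-linked genes outside these families, such as Nxf2, Nxf7 and Zmat1. Bex2 gave 134 and 109 (E11.5 PGC), then 154 and 224 (Day3), next 407 and 559 (Day6) and 642 and 713 (EG), and Bex4 gave 1538 and 925 (E11.5 PGC), then 1408 and 1151 (Day3), next 3148 and 3286 (Day6) and 2666 and 2506 (EG). Bex2 was highest in EG and Bex4 at Day6, in both without overlap between the Day6 and EG arrays. Of the 12 other genes 4 rose in the late contrast and 0 fell, against 4.9% and 4.71% of all probes. Among the 446 X-linked genes without the late gains, 11.9% were called higher and 1.35% lower. The list was drawn up with earlier results known, so its counts are a description. At an unadjusted p under 0.05 there were 6 of the 12 higher and 0 lower, against 25.4% of all probes in either direction. In the fit blocked by array series 6 rose and 0 fell, against 9.14% and 13.6% of all probes. In that fit 21.5% of the 446 X-linked genes were called higher and 4.71% lower. The median late contrast of the 12 was 0.74, against -0.10 over all probes and 0.12 over the 446 X-linked genes. Armcx1, which had the greatest late contrast of the list, gave 3.03 and 4.29 (E11.5 PGC), then 5.12 and 15.2 (Day3), next 157 and 162 (Day6) and 152 and 156 (EG), and rose by 4.80 ± 0.35 (limma, standard error, n = 8 arrays, adjusted p = 0.0015). Its gap of 3.32 exceeded that of every late gain, and it was kept out of the set by a Day3 minus E11.5 PGC difference of 1.29. Bex1 gave 1892 and 931 (E11.5 PGC), then 3633 and 1962 (Day3), next 10840.0 and 7261 (Day6) and 8753 and 8048 (EG) and rose by 2.20, and missed the limit by little. Tceal5 rose by 1.46 and Bex3 by 1.33, with gaps of 0.52 and 0.47. Armcx1 and Tceal5 had early arrays under the floor, so the size of their changes rests in part on values near background.

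**Figure D4:**
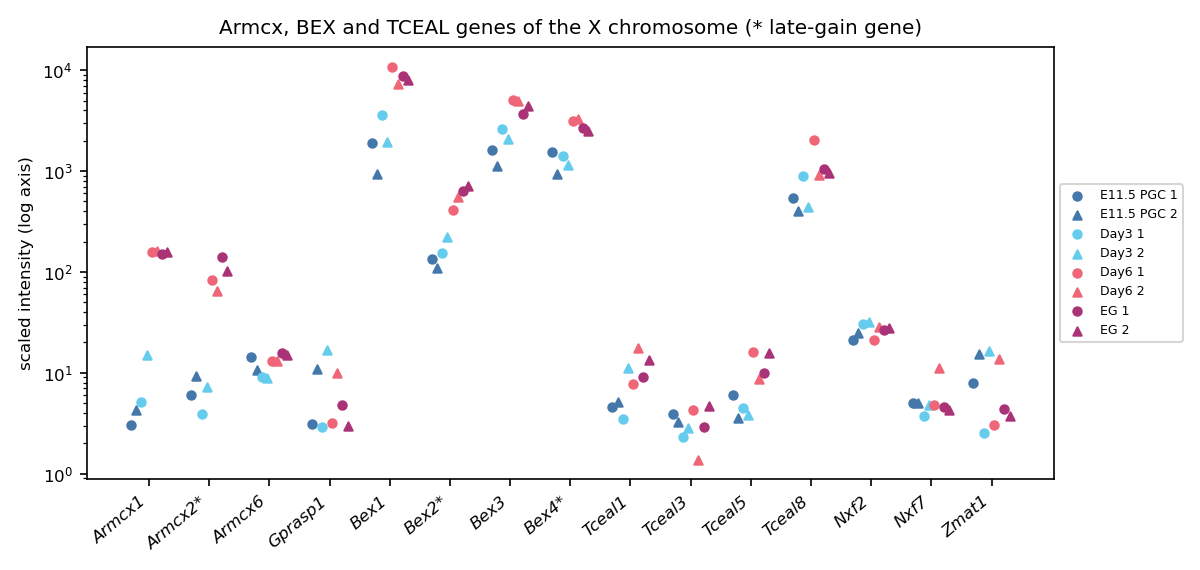
Scaled intensity (log axis) of the 15 tested genes of the Armcx and BEX/TCEAL list, 1 point per array, with late gains marked by an asterisk. Armcx1 and Armcx2 go from at most 15.2 to at least 65.1, whereas Armcx6 and Nxf2 stay at like intensities on all arrays.

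EG and Day6 were then compared within the set. The rule needed all 4 of their arrays to be high and set no order between them. Genes whose Day6 or EG arrays were still low could not enter, so the counts and medians over the 76 are a description, and they do not show how many of all gains in EG were complete by Day6. Of the 76 genes 0 were called by limma with Benjamini-Hochberg adjustment over 20103 probes, against 0.169% of all probes (28 higher in EG, 0.139%, and 6 lower, 0.0298%). At an unadjusted p under 0.05 there were 17 of the 76 (15 higher in EG, 2 lower) and 13% of all probes. The median difference was 0.32, with 52 genes above 0 and 24 below, against a median of -0.01 and 49.4% above 0 over all probes. Within array series A, which holds both EG arrays and Day6 replicate 1, the median was 0.35 with 51 genes above 0. It was 0.01 over the 14211 probes with a gene symbol measured on all arrays. Both EG arrays were above both Day6 arrays for 34 of the 76 (23.4% of all probes) and below for 13 (22.8% of all probes), and the arrays of the other 29 overlapped.

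The greatest difference in favour of EG was that of Vax2, 2.35 ± 0.45 (log2, standard error, n = 2 arrays per group, limma adjusted p = 0.103). Amhr2 differed by 1.95 ± 0.28 (adjusted p = 0.0634) and Nudt17 by 1.36 ± 0.24 (adjusted p = 0.0894), and in all 3 both EG arrays were above both Day6 arrays. With the array series as a block these 3 were called, at 2.52 for Vax2 (adjusted p = 0.0479), 1.83 for Amhr2 (0.0246) and 1.35 for Nudt17 (0.0365). In that fit 1.96% of all probes were called, 1.25% higher in EG and 0.716% lower. With the block, leaving out either E11.5 PGC array left 2 of the 3 called, Amhr2 and Nudt17, and leaving out any array of another group left 0. Defcr3, an alpha-defensin of the gut, gave 3.05 and 2.38 (E11.5 PGC), then 2.03 and 2.64 (Day3), next 9.79 and 17 (Day6) and 68.2 and 35.9 (EG), and A2m was 2.10 ± 0.59 higher in EG (adjusted p = 0.203). On the other side, Pdgfc had a difference of -1.79 ± 0.69 (adjusted p = 0.336) and Adcy2 one of -1.61 ± 0.62 (adjusted p = 0.34). Lrrc15, a leucine-rich repeat surface protein, had one of -1.10 ± 0.54 (adjusted p = 0.452). The 13 genes with both EG arrays below Day6 were Mcf2, Adcy2, Lrrc15, Pzp, Pdgfc, Nodal, Tnnt2, Gli2, Cct6b, Traf3ip2, Mme, Rab17 and Bex4. Several late gains stood within 0.1 of 0 with small errors, such as Epb41l1, a membrane skeleton protein (0.01 ± 0.26), and Cabp1 (0.04 ± 0.30), while Thy1 (-0.11 ± 1.72) had the greatest error.

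**Figure D5:**
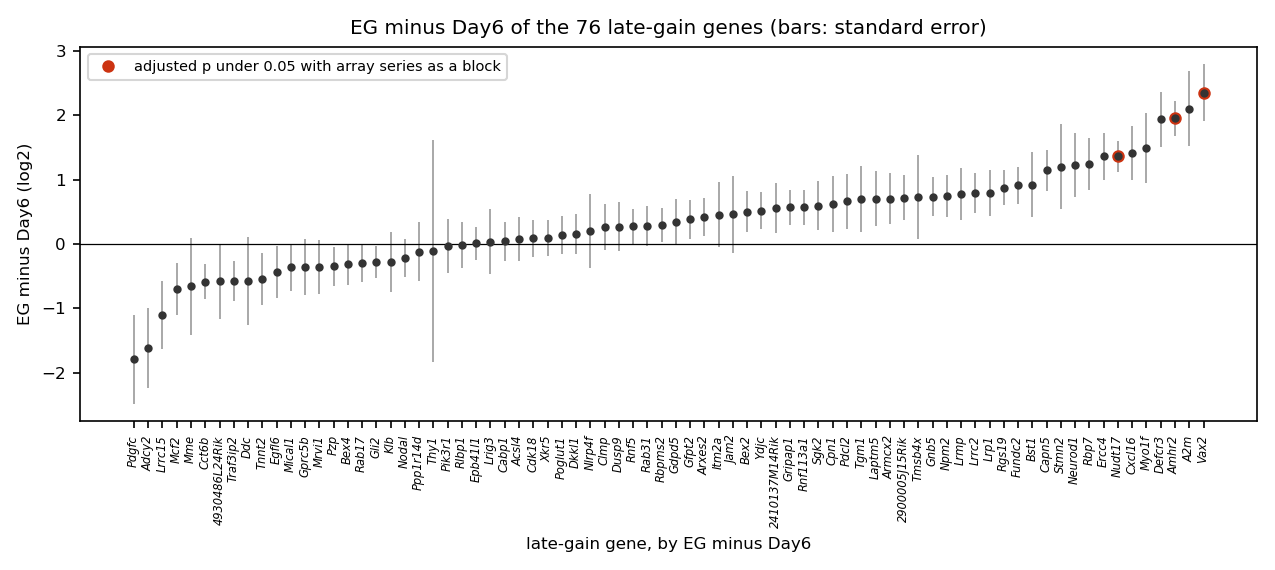
EG minus Day6 (log2) of the 76 late gains, ordered by size, with bars of 1 standard error from the fit on all arrays. Points run from -1.79 (Pdgfc) to 2.35 (Vax2), 52 of the 76 are above 0, and red marks the 3 genes called with the array series as a block.

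Of the 76 late gains, 14 (18.4%) stood in at least 1 of 33 gene lists for pathways, cell types and families, against 690 of 14030 genes measured (4.92%), and 62 stood in none. The lists were drawn up with earlier results known, so these shares are a description. The 14 were spread over 11 lists. Counts of other list genes below stand against 4.9% of all probes called higher and 4.71% called lower in the late contrast. At an unadjusted p under 0.05 in that contrast the share was 25.4% of all probes, in either direction. Where a late contrast below is that of a gene with an array under the floor (Fgf3, Fgf4, Fgf15, Ttn, Rac2 and Arhgdib), its size rests in part on values near background. The late contrast sets no limit on Day3 minus E11.5 PGC, so genes outside the set may have changed by Day3. That difference was 4.01 for Fgf4, 3.70 for Tbx3, 2.05 for Tdgf1, 2.03 for Fgfbp1, 1.64 for Nr0b1 and -0.17 for Fgf15. The list for TGF-beta and Activin targets held Nodal. Of its 14 other tested genes, with a median late contrast of -0.07 against -0.10 over all probes, 2 rose, Tdgf1, the Nodal co-receptor (by 3.60), and Pmepa1, a feedback inhibitor of this pathway (by 1.88). Of the same 14, Id3 fell by 2.38 and Skil fell by 1.16. The list of FGF ligands and receptors held Klb, and of its 12 others (median 0.06) 4 rose and 1 fell. Fgf4, the ligand of the inner cell mass, rose by 4.46, Fgfbp1 by 2.11, Fgf3 by 1.87 and Fgf15 by 1.14, while the receptor gene Fgfr2 fell by 2.44. The list named for naive pluripotency regulators held Jam2, and it also holds other surface genes, such as Icam1 and Pecam1. Of its 27 others (median 0.30) 9 rose and 2 fell, among them Tbx3 (by 3.26) and Nr0b1 (by 3.10), and Dppa3 fell by 3.00. Of 13 other genes of the primed epiblast beside Nodal (median 0.28), 2 rose and 2 fell. In EG minus Day6, 1 of the 15 tested genes of that list was called higher and 0 lower, against 0.139% and 0.0298% of all probes. It was Lefty1 (limma adjusted p = 0.0115), whose late contrast was only 0.28. Lefty1 gave 400 and 269 (E11.5 PGC), then 10.8 and 17.4 (Day3), next 13.2 and 14 (Day6) and 551 and 434 (EG).

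The cleavage-stage and oocyte list held Nlrp4f and Npm2. Of its 25 others (median 0.10) 6 rose and 0 fell, against 4.9% and 4.71% of all probes. At an unadjusted p under 0.05 there were 7 and 0, against 25.4% of all probes in either direction. Zscan4c, a marker of the rare state that resembles the embryo at zygotic genome activation, gave 2.79 and 1.71 (E11.5 PGC), then 1.44 and 16.1 (Day3), next 45.6 and 100.2 (Day6) and 1368 and 4256 (EG), and rose in the late contrast (limma adjusted p = 0.0045). As 3 of its 4 early arrays lay under the floor, no size of the rise is given. The later germ cell list went the other way from its member Pdcl2: of its 27 others (median -0.80) 0 rose and 9 fell, with 0 and 14 at an unadjusted p under 0.05, among them Asz1 by 3.91, Dazl by 3.24 and Tdrd5 by 2.66. The neuronal list held Adcy2 and Stmn2, and of its 30 others (median 0.19) 5 rose and 0 fell, with 12 and 3 at an unadjusted p under 0.05. In the fit blocked by array series 11 and 2 were called, against 9.14% and 13.6% of all probes. The 5 were led by the microtubule-associated protein Mapt (by 2.59) and Stmn3 (by 1.88). Of 24 other muscle genes beside Tnnt2 (median 0.16), 4 rose and 1 fell, with Ttn, the giant sarcomere protein, highest at 3.51. Of 31 other myeloid and lymphoid genes beside Laptm5 (median 0.09), 7 rose and 2 fell. Cd3d, a chain of the T cell receptor complex, rose by 2.56, Rac2 by 2.02 and Arhgdib by 1.92, while the signalling genes Ptpn6 and Tyrobp fell by 1.87 and 0.95. Of these blood cell markers Ptprc, the CD45 gene, lay between 2.81 and 5.74 on all arrays. The summed intensity of the 6 blood markers measured was 141 to 174 in E11.5 PGC, Day3 and Day6, and 345 and 353 in EG, of which 283 and 307 was Cd68, and its part in the values of Laptm5 and Myo1f was not tested.

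The 2 Day6 arrays agreed for most of the set, with a median difference of 0.05 between replicates 1 and 2 (-0.07 over the 14211 probes with a gene symbol measured on all arrays), 39 genes higher in replicate 1 and 37 in replicate 2, and 13 that differed by over 2-fold. Thy1, a surface glycoprotein of fibroblasts, neurons and T cells, gave 4.64 and 1.99 (E11.5 PGC), then 5.37 and 1.86 (Day3), next 747 and 10.7 (Day6) and 96.6 and 71 (EG), a difference of 70.1-fold between the Day6 replicates. Tgm1, a transglutaminase of epidermis, was 3.25-fold, Stmn2 3.01-fold and Adcy2 2.46-fold higher in replicate 1, and Pdgfc 4.19-fold and Lrrc15 2.58-fold higher in replicate 2. Markers of fibroblasts and feeder cells are given beside it. The summed intensity of the 10 markers, Thy1 included, was 108 and 153 (E11.5 PGC), then 310 and 452 (Day3), next 2679 and 157 (Day6) and 1037 and 361 (EG). Much of the late sums was S100a4, at 1335 and 13.2 in Day6 and 808 and 190.04 in EG. Acta2 was 198 and 6.14 at Day6, and Col1a2 was 129 and 19.9. Dcn (68.2 and 18.9), Col3a1 (101 and 24.1) and Col1a1 (43.5 and 9.89) were also higher in replicate 1 at Day6. Over the groups, Dcn and Col3a1 did not follow Thy1. Dcn was 75.9 and 173 at Day3 and 16.3 and 6.32 in EG. Col3a1 was 49.4 and 137 at Day3 and 13.5 and 10.4 in EG. Lum and Postn stayed at or under 11.4 on all arrays. The part of other cells in the values of Thy1 was not tested. Of the 17 other tested genes of the wider fibroblast list (median 0.38), 1 rose in the late contrast, Timp1 by 2.23, and 0 fell. The shares over all probes were 4.9% and 4.71%. At an unadjusted p under 0.05 there were 4 and 0, against 25.4% of all probes in either direction.

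The cell types of the labels were checked against their markers. All 8 germ cell markers were measured above the floor on every array, with a summed intensity of 17389 and 10469 in E11.5 PGC that ended at 1937 and 1428 in EG. The greatest part of the germ cell sum was Dppa3, at 10543 and 5303 in E11.5 PGC and 843 and 424 in EG. Ddx4, Dazl, Nanos3, Dnd1 and Kit were also lower on both EG arrays than on both E11.5 PGC arrays. Tfap2c fell less, from 713 and 503 to 404 and 320. Prdm1 overlapped, at 19.7 and 44.3 in E11.5 PGC and 35.6 and 19.6 in EG. The 8 pluripotency markers summed to 17160 and 15033 in E11.5 PGC and 40213 and 47402 in EG. Most of the pluripotency sum was Dppa5a, at 13998 and 11815 in E11.5 PGC and 26506 and 28405 in EG. Tfcp2l1 was lower in EG (9.63 and 10.4, against 16.1 and 24). Markers of gonadal somatic cells summed to 29.9 to 65.1 over the measured ones of 8 genes and those of endothelium to 62.7 to 180 on every array.

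For 2 late gains a second probe of the same gene was measured on all arrays. The second probe of Arxes2, an X-linked gene of a pair of near-identical copies, gave 59.4 and 35.2 (E11.5 PGC), then 46.7 and 42.4 (Day3), next 188 and 128 (Day6) and 256 and 214 (EG), with a gap of 1.11, against 89.7 and 65.1 (E11.5 PGC), then 92.4 and 66.4 (Day3), next 177 and 160.4 (Day6) and 229.8 and 221 (EG) on the first. Both followed the same steps. The second probe of Cxcl16 gave 78.9 and 46.2 (E11.5 PGC), then 76.7 and 41.2 (Day3), next 83.6 and 48.8 (Day6) and 99.7 and 92.7 (EG), and its late arrays overlapped the early ones, so that the 2 probes of Cxcl16 disagree. Probes for members of families with like sequences, namely Arxes2, A2m and Pzp, Defcr3, Nlrp4f and the Bex genes, may bind transcripts of more than 1 copy, and their values are uncertain in that respect.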

How the data were processed

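The samples were 8 one-colour TORAY arrays, 2 in each of 4 groups. RNA was extracted on columns, amplified as aminoallyl aRNA and coupled to dye, per the labels' protocols. The deposited values are linear spot intensity with array medians between 19.99 and 20.01. How the authors corrected background, scaled the arrays and left cells empty is not stated in the sources used here. There were 23473 probes in the table, 21126 to 22404 of them measured on an array and 19524 on all 8. A platform table named 1 symbol for 16631 probes, several for 0 and none for 6842. Of the symbols 12622 were current, 3947 were updated through synonyms in the RefSeq gene table (7 of them late gains) and 62 were kept.

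Values were converted to log2 without further scaling or imputation. Contrasts were fitted by limma 3.58.1 (R 4.3.3) over 8 arrays in 4 groups. Its moderated tests were two-sided, and p-values were adjusted by Benjamini-Hochberg over the probes tested, at a threshold of 0.05. Probes with an empty cell in a group compared were not tested. Differences are log2 with standard errors. The code was tested on simulated data. The late gains and the gene lists were chosen with earlier results of these data known.

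Named genes were the 12 with the widest gap, the 8 brightest, those called in EG minus Day6, up to 4 members per list, the 3 on each side of both thresholds, those with a second probe, and up to 3 called others per list. The other genes named with values were chosen by role after their values were seen. Deviations of replicate 1 from the group mean were correlated over 19524 probes between E11.5 PGC and Day3 (0.62), between E11.5 PGC and Day6 (0.547) and from Day3 to Day6 (0.694), with EG at -0.025 to 0.061, so the array series was used as a block, as an alternative, with EG in series A alone. Alternatives were 2 scalings, a pseudocount, a filter on dim probes, another variance model, other thresholds, 2 blocks, and leaving out each array. The number of arrays limits the precision.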

Additional observations from a re-analysis of the deposited data

Results flagged for a closer look

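Probes without a gene symbol were not used in the comparisons. Of 5313 such probes measured on all 8 arrays, 18 met the same rule as the late gains (0.339%, against 0.542% of the genes with a symbol), with gaps of up to 1.60 on the log2 scale. They are unnamed here and were not examined further.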

How the results depend on the processing

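The count of 76 late gains became 125 with a gap of 0.5, 44 with a gap of 1, 42 with a limit of 0.5 on Day3 minus E11.5 PGC and 130 without that limit. Leaving out 1 array gave 81 to 169, where a rise follows in part from the rule, since the gap cannot narrow. Quantile normalization gave 86 genes, of which 71 were among the 76, median centring 80 (70 shared) and a pseudocount of 2 gave 74 (66 shared); Myo1f, Lrrc15 and Rab17 were lost under both scalings. The share on the X was 11.3% to 19.5% over 16 alternatives, and the X-linked median of the late contrast stayed above the autosomal one by 0.24 to 0.31 over 15.

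For EG minus Day6 over all probes, 34 were called. The count was 395 with the array series as a replicate block, 241 with the replicate number as a block, 0 on EG and Day6 arrays only, 0 on series A only (which has 1 Day6 array, so little could be called), 68 after quantile normalization, 145 with the pseudocount, 89 without the 5850 dimmest probes, 98 with trend and robust variance, and 0 to 6 without 1 array. Late gains called, 0 of 76, became 3 with the series block, 2 with the replicate number block, 3 with the pseudocount, 1 without the dimmest probes and 1 with trend and robust variance. With the series block and 1 array left out they were 0 to 2, an alternative chosen after seeing the data. The late contrast called 1876 probes, 4442 with the series block, 3190 with the replicate number block and 359 to 2207 without 1 array. The balance of its calls also turned: 956 were higher and 920 lower, but 1784 and 2658 with the series block, 1423 and 1767 with the replicate number block, 1108 and 1276 with the pseudocount, 1020 and 1098 without the dimmest probes, 1058 and 1148 with trend and robust variance, and 1059 and 1148 without Day6 replicate 2. The cause of these shifts was not tested.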
